A study of Mus musculus with 24 samples.

Results

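The 9 genes described here make, process or line the mucus of intestinal goblet cells: Muc2, Fcgbp, Zg16, Tff3, Agr2, Retnlb, Fut2, Muc13 and Muc4. They were taken by symbol from a table of estimated counts for 37620 genes, and all 9 passed the filter on low counts that left 16552 genes. They were taken by name, not by a threshold on a measured value. In the GRCm38 annotation Fcgbp (ENSMUSG00000047730), Fut2 (ENSMUSG00000055978), Zg16 (ENSMUSG00000049350) and Muc2 (ENSMUSG00000025515) lie on chromosome 7, Muc4 (ENSMUSG00000079620), Muc13 (ENSMUSG00000022824) and Retnlb (ENSMUSG00000022650) on chromosome 16, Agr2 (ENSMUSG00000020581) on chromosome 12 and Tff3 (ENSMUSG00000024029) on chromosome 17.

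Goblet cells are secretory cells of the gut epithelium that arise from crypt progenitors when Notch signalling is low and the factor Atoh1 is active. They pack the gel-forming mucin MUC2, together with proteins that bind or cross-link it, into granules and release them onto the epithelial surface. Other mucins stay anchored in the apical membrane of epithelial cells, where they carry sugar chains that glycosyltransferases such as FUT2 complete.

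The RNA-seq libraries were made from polyadenylated RNA of jejunal crypts, with 24 mice, 3 in each of 8 groups, and each library came from a separate mouse per the series design. The genotypes were a conditional loss of both Apc and the Notchless gene Nle1 (ApccKO;NlecKO, the double knockout), a conditional loss of Apc (ApccKO), a conditional loss of Nle1 (NlecKO), and Control. All groups, Control included, received tamoxifen at 56 mg/kg on 3 consecutive days at 5 to 10 weeks of age, and their crypts were collected at 24 h (called day 1) or at 48 h (called day 2). The sources used here do not give the Cre driver or the alleles of Control mice. APC restrains Wnt signalling, and Notchless takes part in assembly of the large ribosomal subunit.

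Depth ranged from 17.86 to 26.47 M estimated counts per library (median 19.82 M). Nle1 averaged 9.80 ± 1.08 CPM in double knockout and 34.9 ± 1.14 CPM in ApccKO crypts on day 2, and 6.69 ± 1.02 CPM in NlecKO and 22.7 ± 4.50 CPM in Control crypts (SD, n = 3 each), so it was lower wherever its loss was labelled. Apc averaged 129.8 to 146.7 CPM in the 8 groups, and whole-gene counts do not show a partial deletion. The sample codes of the Apc-lost mice form 1 run between runs of Apc-intact mice, so a batch of that run cannot be told apart from Apc loss within a day. On day 1, 3 Apc-lost libraries (ApccKO replicates 2 and 3 and double knockout replicate 3) stood apart: the predicted gene Gm8730 lay at 0.320 to 0.578 CPM in them and at 52.67 CPM or more in every other library, and the enterocyte gene Lct at 294.8 CPM or more against at most 125.7 CPM in the other Apc-lost libraries. Comparisons that use them are also given without them. Day 1 ApccKO is then 1 mouse (replicate 1) and day 1 double knockout 2 mice, so these values rest on a lone ApccKO library that is assumed to vary like the libraries of the other groups.

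The RefSeq promoter table (GRCm38.p6; 250 bases before to 50 after a start site) held 5 of the 9 genes: Muc2, Fcgbp, Agr2, Muc13 and Muc4. Zg16, Tff3, Retnlb and Fut2 had no entry. The 4 promoters below are shown because Muc2, Fcgbp and Agr2 fell together after Apc loss on day 2, whereas Muc4 rose. All lie on the plus strand, at chr7:141690090-141690389, chr7:28070986-28071285, chr12:35992675-35992974 and chr16:32735636-32735935, read 5′ to 3′. Capitals mark exact matches, on either strand, to 5 motifs. These were CTTTGA for the TCF/LEF factors of Wnt signalling, TGTTTAC for the FOXA forkhead factors, TTTATNG for the intestinal factor CDX2, CAGCTG for E-box factors such as Atoh1, and TATAAA for the TATA box.
Muc2: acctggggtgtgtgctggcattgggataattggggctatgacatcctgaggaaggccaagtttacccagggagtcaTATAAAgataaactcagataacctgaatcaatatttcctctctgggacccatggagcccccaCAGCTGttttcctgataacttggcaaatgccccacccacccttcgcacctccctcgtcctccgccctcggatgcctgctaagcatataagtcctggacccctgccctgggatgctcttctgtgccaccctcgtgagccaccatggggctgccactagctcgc
Fcgbp: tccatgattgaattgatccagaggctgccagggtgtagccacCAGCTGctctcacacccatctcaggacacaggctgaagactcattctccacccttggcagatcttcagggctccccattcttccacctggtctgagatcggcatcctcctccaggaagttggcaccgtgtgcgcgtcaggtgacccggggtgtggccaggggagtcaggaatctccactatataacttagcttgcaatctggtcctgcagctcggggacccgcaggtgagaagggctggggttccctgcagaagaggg
Agr2: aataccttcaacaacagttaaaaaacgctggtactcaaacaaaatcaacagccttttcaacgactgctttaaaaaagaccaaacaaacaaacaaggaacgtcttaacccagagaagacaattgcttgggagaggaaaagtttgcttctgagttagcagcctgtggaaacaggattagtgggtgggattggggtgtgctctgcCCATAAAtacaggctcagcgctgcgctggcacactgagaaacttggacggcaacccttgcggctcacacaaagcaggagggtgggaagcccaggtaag
Muc4: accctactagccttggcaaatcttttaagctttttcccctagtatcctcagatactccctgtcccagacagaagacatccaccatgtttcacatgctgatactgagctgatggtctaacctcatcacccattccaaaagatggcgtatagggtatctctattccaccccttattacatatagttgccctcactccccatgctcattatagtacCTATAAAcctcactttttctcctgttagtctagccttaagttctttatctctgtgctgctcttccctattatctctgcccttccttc
The E-box letters stood in the Muc2 and Fcgbp windows, the CDX2 letters in the Agr2 and Muc4 windows, and the TATA letters in the Muc2 and Muc4 windows, where in Muc4 they overlap the CDX2 match. Neither the TCF/LEF nor the FOXA letters stood in these 4 windows. Muc13, which also fell, has 2 start sites in the table: the window of the first held none of the 5 motifs, and that of the second held the TCF/LEF letters 2 times, at -237 and -182 from the start. Of 32851 promoters of the same length, 16.3% held the E-box letters, 10.9% the CDX2, 13.6% the TATA, 16% the TCF/LEF and 3.65% the FOXA letters. A match is a description of letters, not a binding site.

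In Control crypts on day 2, levels per transcript length placed Tff3 (3684 ± 205 TPM) and Zg16 (3535 ± 577 TPM; SD, n = 3) highest. Fcgbp followed at 1694 TPM, Muc13 and Agr2 stood close together at 715 and 709 TPM, and Muc2 was at 321 TPM. Muc4 at 18.0 TPM, Retnlb at 1.67 TPM and Fut2 at 1.29 TPM were far lower. Tff3 and Zg16, Muc13 and Agr2, and Retnlb and Fut2 are neighbours in this order whose means differed by less than the SD between mice. In ApccKO crypts on day 2 the order was Tff3 (841 TPM), Muc13 (511 TPM), Zg16 (506 TPM), Agr2 (340 TPM), Fcgbp (315 TPM), Muc2 (110 TPM), Muc4 (56.1 TPM), Fut2 (30.2 TPM) and Retnlb (11.9 TPM).

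**Figure D1:**
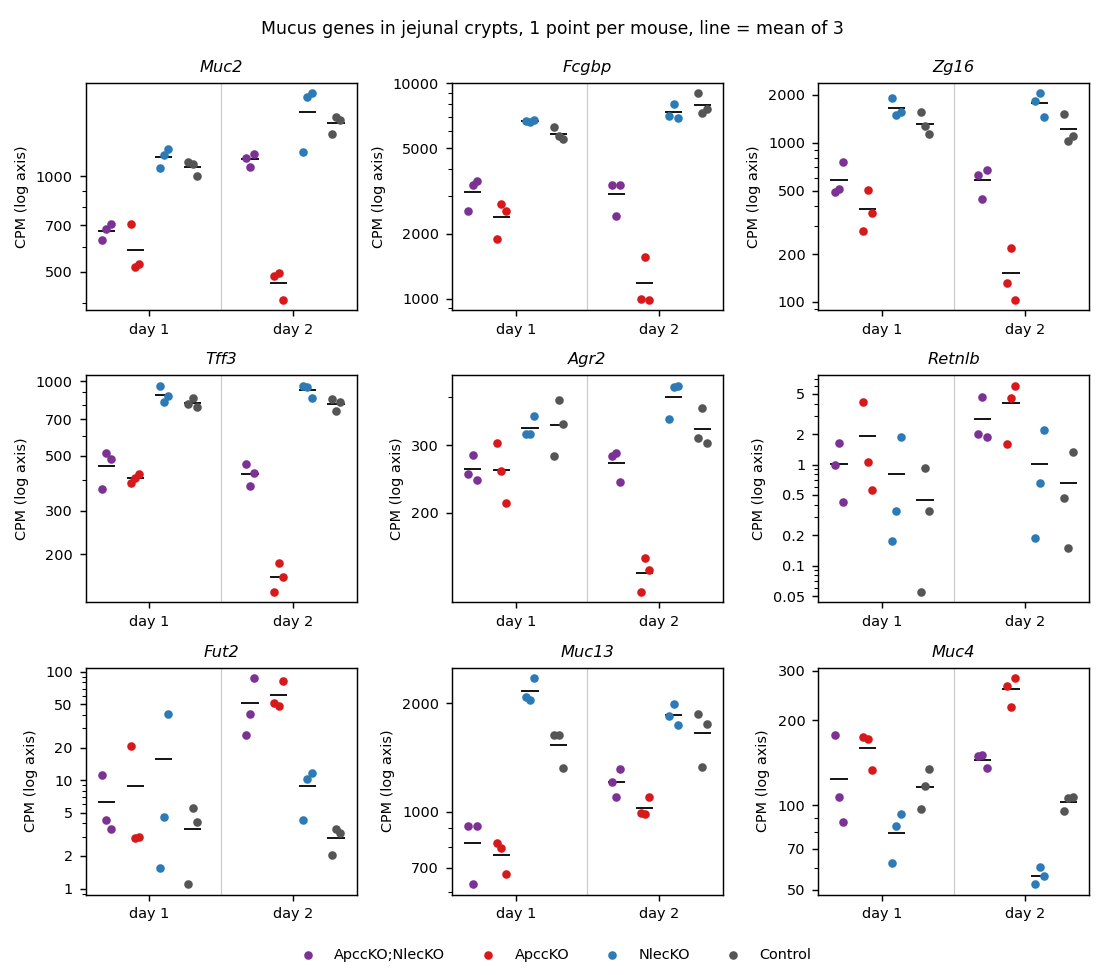
CPM of the 9 mucus genes in each of 24 mice (log axis), by genotype and day, with a line at the mean of 3 mice. Muc2, Fcgbp, Zg16, Tff3 and Agr2 sit lowest in ApccKO crypts on day 2, with double knockout crypts between them and the Apc-intact groups, whereas Muc4 and Fut2 sit high in ApccKO crypts on day 2.

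On day 2, Zg16, Fcgbp, Tff3, Muc2 and Agr2 were lower after Apc loss with Nle1 present, and Muc4 and Fut2 were higher. Of the 9 genes 6 fell and 3 rose in ApccKO against Control crypts on day 2, where 58.7% of all tested genes were called, 29.4% of them lower and 29.2% higher. The median log2 fold change of the 9 was -1.25, beside 0.02 over all tested genes. The 9 genes summed to 3443 ± 367 CPM in ApccKO and 13522 ± 1324 CPM in Control crypts (SD, n = 3 each). Fcgbp was the largest part of both sums, at a mean of 1179 CPM in ApccKO and 7944 CPM in Control crypts. In such bulk samples fewer goblet cells and less RNA per goblet cell cannot be told apart.

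Zg16 encodes a lectin of the mucus layer that binds bacterial cell walls. It stood at 131.8, 219.6 and 103.1 CPM in ApccKO crypts and at 1509, 1018 and 1108 CPM in Control crypts on day 2. The groups were far apart, and the mean in ApccKO crypts was 12.5% of that in Control crypts (log2 fold change -3.00 ± 0.29 SE, adjusted p = 1e-07).

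Fcgbp, a large mucus protein that binds the MUC2 network, was at 997.7, 1554 and 985.9 CPM in ApccKO crypts, against 8978, 7253 and 7602 CPM in Control crypts on day 2. Every ApccKO value lay below every Control value, and the ApccKO mean was 14.8% of the Control mean (log2 -2.75 ± 0.18, adjusted p = 6.9e-10). Of the 31-base words in its transcripts 12.2% also occur in other genes, most often 9530053A07Rik, so part of its count could be shared.

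Tff3, a trefoil peptide secreted with mucin that takes part in epithelial repair, was at 140.7, 184.7 and 161.9 CPM in ApccKO crypts and at 845.0, 755.1 and 823.5 CPM in Control crypts. Its mean fell to 20.1% of Control (log2 -2.31 ± 0.12, adjusted p = 2.6e-11). The spread within either group was small beside this gap.

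Muc2, the gel-forming mucin itself, was at 485.8, 494.7 and 408.5 CPM in ApccKO crypts and at 1359.9, 1541 and 1506 CPM in Control crypts. The ApccKO mean was 31.5% of Control (log2 -1.67 ± 0.14, adjusted p = 9.3e-09), with no overlap of the groups. Agr2, a disulfide isomerase of the endoplasmic reticulum needed for MUC2 production, was at 124.2, 152.0 and 142.0 CPM in ApccKO and at 313.7, 375.4 and 304.6 CPM in Control crypts. It was the least lowered of these 5 genes, at 42.1% of Control (log2 -1.25 ± 0.14, adjusted p = 2.8e-07).

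The membrane mucins did not move one way. Muc13, which is carried by enterocytes as well as goblet cells, was at 993.3, 983.5 and 1100.3 CPM in ApccKO and at 1872, 1333 and 1750.2 CPM in Control crypts on day 2 (log2 -0.69 ± 0.14, adjusted p = 0.00032). Muc4, a large membrane mucin that can bind the receptor ErbB2, was at 265.8, 223.5 and 282.9 CPM in ApccKO and at 95.37, 106.3 and 106.8 CPM in Control crypts. Muc4 rose 2.50-fold (log2 1.32 ± 0.20, adjusted p = 1.5e-05), with every ApccKO value above every Control value.

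Fut2, the fucosyltransferase that adds terminal fucose to mucin sugar chains and is known to be induced in the gut by microbes and interleukin-22, was at 51.04, 48.67 and 82.80 CPM in ApccKO crypts and at 2.037, 3.561 and 3.266 CPM in Control crypts on day 2. It rose 20.3-fold (log2 4.34 ± 1.05, adjusted p = 0.0018), and 3.99% of its 31-base words also occur in other genes, most often Sec1. Retnlb, a goblet cell peptide with antibacterial activity that is induced by microbes and type 2 cytokines, was at 1.605, 4.556 and 6.047 CPM in ApccKO and at 0.466, 0.148 and 1.339 CPM in Control crypts (log2 2.70 ± 0.98, adjusted p = 0.025). The groups did not overlap, but Retnlb was near the detection limit, and its adjusted p was 0.08 without ApccKO replicate 3, 0.076 without Control replicate 1 and 0.097 without Control replicate 2.

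On day 1 the same comparison called 6 of the 9 genes, all lower, where 49.7% of all tested genes were called and 25% lower. Zg16 was at 279.0, 504.7 and 362.0 CPM in ApccKO and at 1554, 1264 and 1134 CPM in Control crypts (log2 -1.79 ± 0.27, adjusted p = 5.2e-05). Fcgbp (log2 -1.28 ± 0.18, adjusted p = 1.1e-05), Tff3 (-1.01 ± 0.12, 1.6e-06), Muc13 (-1.01 ± 0.14, 1.4e-05) and Muc2 (-0.87 ± 0.14, 4.7e-05) also fell without overlap between the groups. Agr2 was at 304.9, 256.4 and 212.5 CPM in ApccKO and at 281.7, 394.1 and 340.5 CPM in Control crypts, which overlap (log2 -0.39 ± 0.13, adjusted p = 0.02). Without the 3 libraries that stood apart, which leaves 1 ApccKO mouse, only effect sizes are given. Zg16 was then at -2.22, Fcgbp at -1.60, Tff3 at -1.04, Muc13 at -0.89 and Muc2 at -0.57 on the log2 scale. Agr2 was at -0.13, nearer to no change than with all libraries, Retnlb at 3.23 and Muc4 at 0.61. The call of Agr2 was lost without Control replicate 2 or 3 or ApccKO replicate 2 or 3, with adjusted p of 0.13, 0.054, 0.058 and 0.15 in that order. Muc4 (0.46 ± 0.20, 0.057) was called higher with DESeq2 (0.041), with DESeq2 size factors in edgeR (0.049), with a filter of 2 CPM in 3 libraries (0.042), with only the libraries compared (0.035), and without Control replicate 3 (0.033) or ApccKO replicate 3 (0.03). Its values overlap, at 174.4, 171.2 and 133.1 CPM in ApccKO and 96.79, 116.4 and 133.9 CPM in Control crypts.

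The size of the Apc effect differed between the days for 4 genes, a test in which 1.13% of all tested genes were called, 0.526% positive and 0.604% negative. The log2 fold change of ApccKO against Control on day 2 minus that on day 1 was -1.47 ± 0.25 for Fcgbp (adjusted p = 0.0059), -1.31 ± 0.16 for Tff3 (0.0013), -0.86 ± 0.19 for Agr2 (0.033) and -0.80 ± 0.19 for Muc2 (0.046). For Zg16 it was -1.21 ± 0.38 (adjusted p = 0.14). These differences also hold the change of Control crypts between the days. Muc2 averaged 1069 CPM in Control crypts on day 1 and 1469 CPM on day 2, beside 586 and 463 CPM in ApccKO crypts. Fcgbp averaged 5824 and 7944 CPM in Control crypts, beside 2398 and 1179 CPM in ApccKO crypts. Without the 3 libraries that stood apart, with day 1 ApccKO as 1 mouse, 3 of all tested genes were called in place of 187. Of the 9 only Tff3 was called, with values of -1.15 for Fcgbp, -1.11 for Agr2 and -1.09 for Muc2. The Muc2 call was lost without any 1 of the 12 libraries compared (adjusted p of 0.053 to 0.13). The Agr2 call was lost without Control replicate 1 or 3 or ApccKO replicate 2 of day 1, or Control replicate 3 or ApccKO replicate 1 or 3 of day 2 (0.053 to 0.082), and Zg16 gained one without ApccKO replicate 2 of day 2 (0.041).

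**Figure D2:**
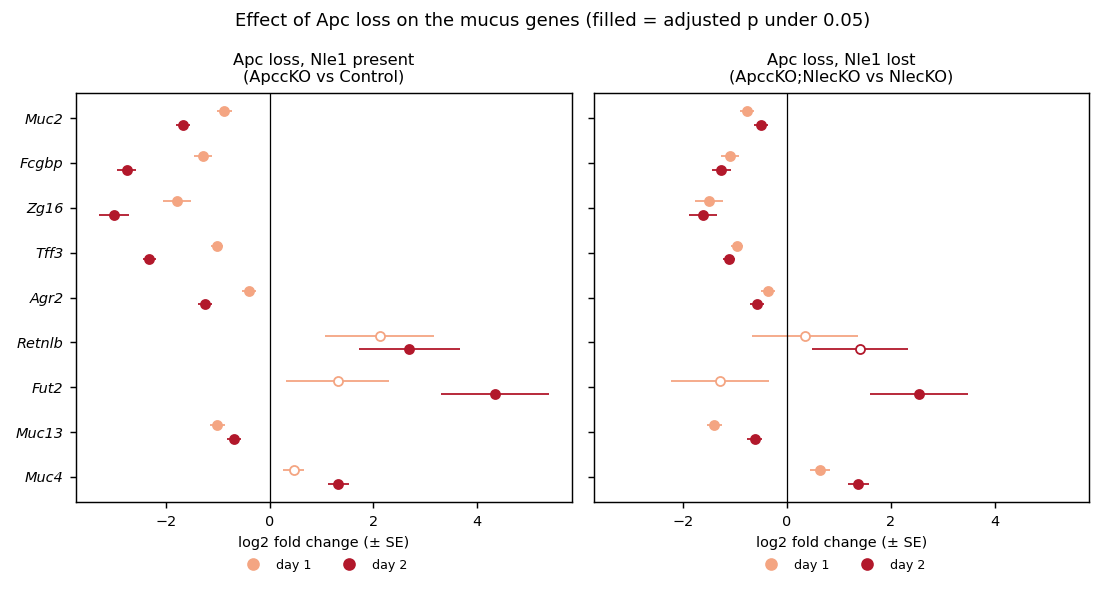
Log2 fold change (± SE) of the 9 genes after Apc loss with Nle1 present (left) and with Nle1 lost (right), on each day; filled points have an adjusted p under 0.05. With Nle1 present the points of Fcgbp, Zg16, Tff3, Agr2 and Muc2 lie further left on day 2 than on day 1. With Nle1 lost, Zg16 lies at -1.50 on day 1 and -1.62 on day 2, and Tff3 at -0.96 and -1.12.

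Within ApccKO crypts, day 2 against day 1 called 5 genes, where 11.3% of all tested genes were called, 5.84% higher and 5.49% lower. Tff3 (log2 -1.32 ± 0.12, adjusted p = 5.5e-06), Agr2 (-0.89 ± 0.14, 0.00039), Fcgbp (-1.02 ± 0.17, 0.00088) and Zg16 (-1.33 ± 0.27, 0.0039) fell and Muc4 rose (0.69 ± 0.20, 0.028). Without the 3 libraries that stood apart, 3 mice of day 2 are set against 1 of day 1, and 34 of all tested genes were called in place of 1875. Fcgbp (-0.70, adjusted p = 0.21), Zg16 (-0.89, 0.28) and Muc4 (0.55, 0.42) were not called in that fit. Muc4 also lost it without ApccKO replicate 2 or 3 of day 1 (adjusted p = 0.07 and 0.14) or replicate 1 or 3 of day 2 (0.088 and 0.12). Fut2 (2.77 ± 0.95, 0.07) was called without ApccKO replicate 1 of day 1 (4.34, 0.021), with DESeq2 (0.021) and with a term for sex (0.043). Muc13 (0.43, 0.052) was called higher with DESeq2 (0.039), with a filter of 2 CPM in 3 libraries (0.035), with a term for sex (0.04) and with only the libraries compared (0.016). DESeq2 thus called 7 of the 9, and over all genes it had 2471 calls where edgeR had 1875. In Control crypts edgeR called 0 of the 9 between the days, where 0.163% of all tested genes were called and 2 of the 9 had an unadjusted p under 0.05. DESeq2 also called 0. Without a call, Muc2 still lay at 1005 to 1112 CPM in Control crypts on day 1 and at 1360 to 1541 CPM on day 2. Fcgbp lay at 5509 to 6286 CPM and at 7253 to 8978 CPM, so neither gene overlapped between the days.

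Apc loss was also measured with Nle1 lost. Double knockout against NlecKO crypts called 8 of the 9 on day 2, 6 lower and 2 higher, where 47.8% of all tested genes were called, 22.2% lower and 25.6% higher. Zg16 was at 625.8, 442.6 and 671.2 CPM in double knockout and at 1835, 2042 and 1456 CPM in NlecKO crypts (log2 -1.62 ± 0.27, adjusted p = 0.00012). Fcgbp (-1.26 ± 0.18, 1.2e-05), Tff3 (-1.12 ± 0.12, 4.3e-07), Muc13 (-0.62 ± 0.14, 0.0012), Agr2 (-0.58 ± 0.13, 0.0016) and Muc2 (-0.50 ± 0.14, 0.0051) were lower as well. Muc4 was at 149.1, 151.1 and 134.9 CPM in double knockout and at 52.25, 60.05 and 55.92 CPM in NlecKO crypts (1.37 ± 0.20, 2.5e-05). Fut2 was at 26.06, 40.45 and 87.72 CPM in double knockout and at 4.333, 10.17 and 11.75 CPM in NlecKO crypts (2.54 ± 0.94, 0.034); its adjusted p was 0.14 without double knockout replicate 3 and 0.12, 0.078 and 0.057 without NlecKO replicate 1, 2 or 3. On day 1 the comparison called 7, with Muc4 higher (0.63 ± 0.20, 0.011) and 6 lower, led by Zg16 (-1.50 ± 0.27, 0.0002), Muc13 (-1.40 ± 0.14, 4.7e-07) and Fcgbp (-1.10 ± 0.17, 4.7e-05), where 52.6% of all tested genes were called, 24.4% lower and 28.2% higher. Agr2 on day 1 (-0.36 ± 0.13, 0.029) lost its call without the 3 libraries that stood apart, which leaves 2 double knockout mice (adjusted p = 0.085), and without NlecKO replicate 3 or double knockout replicate 1 or 3 (0.096, 0.089 and 0.088). In the fit without those libraries Zg16 was at -1.71, Muc13 at -1.47, Fcgbp at -1.17 and Muc4 at 0.85. Muc4 on day 1 had an adjusted p of 0.074 without NlecKO replicate 1 and of 0.15 without double knockout replicate 1.

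With Apc lost, Zg16, Tff3, Fcgbp, Muc2 and Agr2 were higher on day 2 where Nle1 was lost too. Double knockout against ApccKO crypts called 6 of the 9, 5 higher and 1 lower, where 34.9% of all tested genes were called, 19.5% higher and 15.4% lower. The median log2 fold change of the 9 was 0.95, beside 0.06 over all tested genes. The 9 genes summed to 6864 ± 846 CPM in double knockout and 3443 ± 367 CPM in ApccKO crypts (SD, n = 3 each), below the 13946 ± 1124 CPM of NlecKO and the 13522 ± 1324 CPM of Control crypts. Fcgbp was again the largest part, at a mean of 3055 CPM in double knockout and 7330 CPM in NlecKO crypts.

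Zg16 was at 625.8, 442.6 and 671.2 CPM in double knockout crypts and at 131.8, 219.6 and 103.1 CPM in ApccKO crypts (log2 1.94 ± 0.28, adjusted p = 3.3e-05). Tff3 was at 464.6, 376.8 and 424.5 CPM in double knockout crypts and at 140.7, 184.7 and 161.9 CPM in ApccKO crypts (1.38 ± 0.12, 9e-08). Neither pair of groups overlapped, and the double knockout means were 3.83 and 2.60 times the ApccKO means.

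Fcgbp was at 3367, 2416 and 3382 CPM in double knockout crypts and at 997.7, 1554 and 985.9 CPM in ApccKO crypts (1.37 ± 0.18, 7.4e-06). Muc2 was at 1144, 1072 and 1174 CPM in double knockout crypts and at 485.8, 494.7 and 408.5 CPM in ApccKO crypts (1.29 ± 0.14, 1.1e-06). Agr2 was at 281.7, 285.6 and 240.2 CPM in double knockout crypts and at 124.2, 152.0 and 142.0 CPM in ApccKO crypts (0.95 ± 0.14, 2.3e-05). In each of these genes all 3 double knockout mice lay above all 3 ApccKO mice. Muc4 went the other way, at 149.1, 151.1 and 134.9 CPM in double knockout crypts and 265.8, 223.5 and 282.9 CPM in ApccKO crypts (-0.83 ± 0.20, 0.0029). Muc13 (0.24 ± 0.14, adjusted p = 0.2), Fut2 (-0.24 ± 0.87, 0.86) and Retnlb (-0.53 ± 0.85, 0.67) were not called.

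On day 1 double knockout against ApccKO called 0 of the 9 with edgeR, where 10.6% of all tested genes were called, 5.87% higher and 4.77% lower. Of the 9, 2 had an unadjusted p under 0.05, and DESeq2 called 0. Muc2 then stood at 629.7, 682.9 and 705.2 CPM in double knockout and at 709.1, 518.5 and 529.6 CPM in ApccKO crypts, which overlap. Without the 3 libraries that stood apart 2 double knockout mice are set against 1 ApccKO mouse: 0 of the 9 and 33 of all tested genes, in place of 1762, were called, with Muc2 at -0.12 against 0.20 with all libraries, Fcgbp at 0.63 against 0.39 and Zg16 at 0.83 against 0.61. Muc4 passed the threshold without double knockout replicate 1 (-0.73, adjusted p = 0.0097). The Nle1 effect with Apc lost differed between the days for 3 genes, where 0.435% of all tested genes were called: Tff3 (day 2 minus day 1, log2 1.21 ± 0.16, adjusted p = 0.0027), Muc2 (1.09 ± 0.19, 0.016) and Agr2 (0.94 ± 0.19, 0.031). Without the 3 libraries that stood apart, with day 1 as 2 double knockout mice and 1 ApccKO mouse, 5 of all tested genes were called in place of 72. Of the 9 only Muc2 was called, with 1.21 for Tff3 (adjusted p = 0.06) and 1.15 for Agr2 (0.12). Muc2 lost its call without double knockout replicate 3 or ApccKO replicate 3 of day 2 (0.056 and 0.078). Agr2 lost it without ApccKO replicate 1 or 2 or double knockout replicate 1 of day 1, or without ApccKO replicate 1 or 3 or any 1 of the double knockout mice of day 2 (0.05 to 0.094). Fcgbp (0.99 ± 0.24, 0.08) gained one without ApccKO replicate 1 of day 1 (0.04) or replicate 2 of day 2 (0.023), and Zg16 (1.32 ± 0.38, 0.13) without ApccKO replicate 2 of day 2 (0.044).

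Within double knockout crypts, Muc2 (0.75 ± 0.14, adjusted p = 0.0031) and Muc13 (0.56 ± 0.14, 0.021) were higher on day 2 than on day 1, where 6.49% of all tested genes were called, 3.46% higher and 3.04% lower. Fcgbp (-0.04 ± 0.17), Zg16 (-0.01 ± 0.27), Tff3 (-0.11 ± 0.11) and Agr2 (0.05 ± 0.13) had overlapping days. Muc2 (0.78, 0.0053) and Muc13 (0.64, 0.024) were also called without the 3 libraries that stood apart, which leaves 2 day 1 double knockout mice. Muc13 lost its call without double knockout replicate 2 of day 1 (adjusted p = 0.14) or replicate 3 of day 2 (0.11), and Muc4 (0.23 ± 0.20, 0.57) gained one without double knockout replicate 1 of day 1 (0.047).

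With Apc intact, Nle1 loss gave no called change in Zg16, Tff3, Fcgbp, Muc2, Agr2, Retnlb or Fut2. NlecKO against Control crypts on day 2 called only Muc4, at 52.25, 60.05 and 55.92 CPM in NlecKO and 95.37, 106.3 and 106.8 CPM in Control crypts (log2 -0.87 ± 0.20, adjusted p = 0.0056), where 15.6% of all tested genes were called, 7.33% higher and 8.26% lower. Muc2 was at 1188, 1770.2 and 1822 CPM in NlecKO and 1359.9, 1541 and 1506 CPM in Control crypts (0.12 ± 0.14, adjusted p = 0.62), and the groups overlap. Without a call, Fut2 still lay at 4.33 to 11.8 CPM in NlecKO and at 2.04 to 3.56 CPM in Control crypts on day 2. Tff3 lay at 851 to 959 CPM and at 755 to 845 CPM, so neither Fut2 nor Tff3 overlapped between these groups. On day 1 edgeR called 0 of the 9, where 2.48% of all tested genes were called and 3 of the 9 had an unadjusted p under 0.05. DESeq2 called Muc13 (0.52, adjusted p = 0.017), which edgeR left at 0.49 ± 0.14 (0.065), with 2081, 2041 and 2353 CPM in NlecKO and 1638, 1636 and 1321 CPM in Control crypts; without Control replicate 1 edgeR called it too (0.046). Between the days NlecKO crypts had 0 called genes of the 9 with edgeR, 2 with an unadjusted p under 0.05 and 0 with DESeq2, where 0.0362% of all tested genes were called, 0.0181% higher and 0.0181% lower. Muc2 (0.47 ± 0.14, 0.25) gained a call there without day 2 NlecKO replicate 1 (0.65, 0.013). The Nle1 effect with Apc intact differed between the days for 0 of the 9 with edgeR, 0 at an unadjusted p under 0.05 and 0 with DESeq2, where 0.00604% of all tested genes were called.

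The difference between the Nle1 effect with Apc lost and with Apc intact was tested as an interaction. On day 2 it called 5 of the 9, all positive, where 5.24% of all tested genes were called, 3.29% positive and 1.95% negative: Tff3 (log2 1.19 ± 0.16, adjusted p = 0.00033), Muc2 (1.17 ± 0.19, 0.0016), Fcgbp (1.49 ± 0.25, 0.0017), Zg16 (1.38 ± 0.38, 0.041) and Agr2 (0.67 ± 0.19, 0.045). Muc4 had an interaction of 0.05 ± 0.28 (adjusted p = 0.95), and its Nle1 effect was -0.83 with Apc lost and -0.87 with Apc intact. The calls of Tff3, Muc2 and Fcgbp held without each of the 12 day 2 libraries in turn. Zg16 lost its call without ApccKO replicate 1 or 3, double knockout replicate 1 or 3, any 1 of the 3 NlecKO mice, or Control replicate 1 or 3, with adjusted p of at most 0.11; Agr2 lost it without 10 of the 12 libraries, with adjusted p of at most 0.12. With the replicate number as a block the adjusted p of Zg16 was 0.055. On day 1 the interaction called 0 of the 9 with edgeR, 0 at an unadjusted p under 0.05 and 0 with DESeq2, where 0.0121% of all tested genes were called. It also called 0 without the 3 libraries that stood apart, with Muc2 at -0.22 and Fcgbp at 0.43. These comparisons share libraries: double knockout, ApccKO, NlecKO and Control mice of a day each enter several of them.

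**Figure D3:**
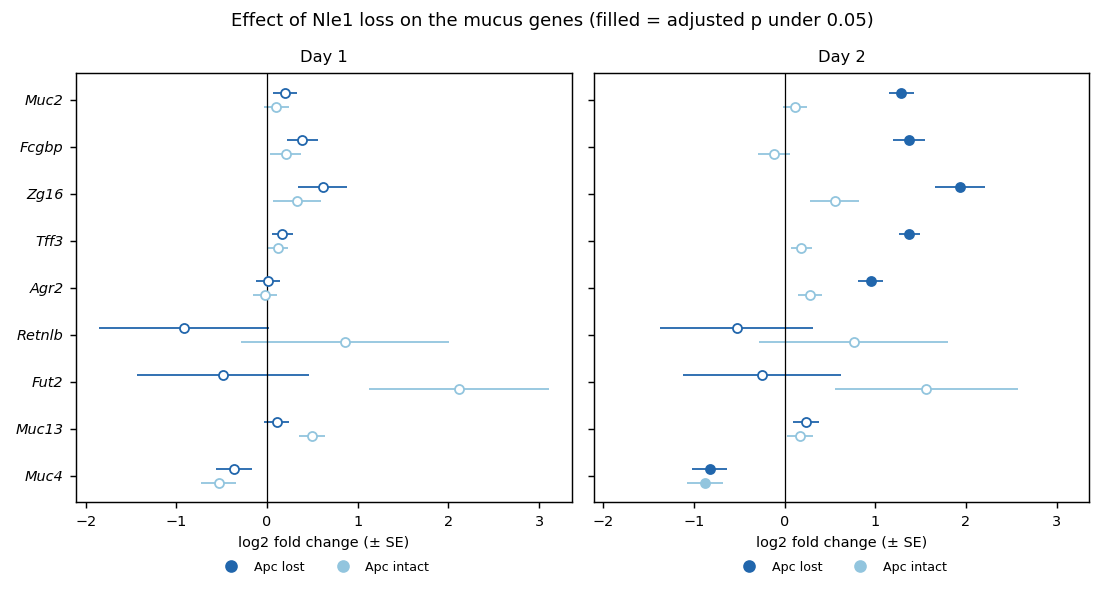
Log2 fold change (± SE) of the 9 genes after Nle1 loss, with Apc lost (dark) and Apc intact (light), on day 1 (left) and day 2 (right); filled points have an adjusted p under 0.05. On day 2 Muc2, Fcgbp, Zg16, Tff3 and Agr2 lie between 0.95 and 1.94 with Apc lost and between -0.12 and 0.55 with Apc intact, whereas Muc4 lies at -0.83 and -0.87.

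Single mice stood out for Fut2. On day 1 it was at 1.566, 4.585 and 40.53 CPM in NlecKO crypts, at 20.66, 2.937 and 2.986 CPM in ApccKO crypts and at 1.093, 5.525 and 4.133 CPM in Control crypts. The antimicrobial lectin gene Reg3b was at 6426 CPM in NlecKO replicate 3, where Fut2 was highest on day 1, and at 1816 CPM in ApccKO replicate 1. The list of cytokine axis genes that holds Reg3b summed to 9553 and 3207 CPM in these 2 mice. It also summed to 4262 CPM in day 1 NlecKO replicate 2 and 2915 CPM in day 1 Control replicate 2, where Fut2 was at 4.585 and 5.525 CPM. A link of Fut2 with Reg3b was not tested. Across all 24 libraries, after each group mean was taken away, the genes whose log2 CPM was most like that of Fut2 among 10113 candidates were Alpk1 (r = 0.91), Tifa (0.91), Celsr1 (0.88), Pibf1 (0.87) and Rrn3 (0.86). For Muc2 they were Fbxw9 (r = 0.84), Snhg7 (0.82), Tnfrsf18 (0.80), Atg9b (0.77) and Ggta1 (0.77).

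Among the 9 genes, 36 pairs were correlated in the same way over 24 libraries, with 100000 permutations within groups. Fcgbp and Zg16 went together most closely (r = 0.88, rho = 0.91, permutation p = 2e-05 for each, adjusted p = 0.00072 over the 36 pairs), and r was 0.83 without the 2 mice farthest from the median. Fcgbp and Tff3 (r = 0.74, rho = 0.68, permutation p = 0.0023 and 0.0032, adjusted 0.04 and 0.048) and Fut2 and Retnlb (r = 0.71, rho = 0.70, permutation p = 0.0033 and 0.004, adjusted 0.04 and 0.048) also passed for both measures, with r of 0.73 and 0.59 without the 2 farthest mice. Of the 36 pairs 6 had an adjusted p under 0.05 for r. Those that passed for r only were Agr2 and Retnlb (r = 0.65), Fut2 and Muc4 (0.63) and Fcgbp and Muc4 (-0.56). Their adjusted permutation p was 0.048 each for r, and 0.058, 0.074 and 0.076 for rho. Muc2 and Fcgbp varied apart within groups (r = 0.02, rho = -0.05, permutation p = 0.93 and 0.87).

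The genes around the mucus program moved in mixed directions. Of 12 goblet cell fate factors 5 rose and 4 fell in ApccKO against Control crypts on day 2, with a median log2 change of 0.24 beside 0.02 over all genes. Over all tested genes 29.2% rose and 29.4% fell. Atoh1, the factor that commits cells to the secretory lineages, fell (log2 -0.70 ± 0.15, adjusted p = 0.00049), at 19.99, 25.66 and 25.72 CPM in ApccKO and 30.37, 45.07 and 40.32 CPM in Control crypts. Spdef, which drives goblet and Paneth cell maturation, was at 44.41, 51.64 and 57.03 CPM in ApccKO and 39.28, 59.91 and 38.45 CPM in Control crypts (0.15 ± 0.17, adjusted p = 0.47). Klf4, a factor of goblet cell differentiation, fell (-1.39 ± 0.28, 0.0004), while the forkhead factors Foxa1 (1.63 ± 0.16, 8.2e-08) and Foxa3 (1.61 ± 0.13, 6.3e-09), the Notch target Hes1 (0.49 ± 0.13, 0.0024) and the secretory lineage factor Gfi1 (0.59 ± 0.18, 0.0095) rose. Xbp1, of the unfolded protein response, fell by 0.23 on the log2 scale (SE 0.08, 0.012), and Creb3l1 stood at -0.06 ± 0.18 (0.78). In double knockout against ApccKO crypts 0 of the 12 rose and 5 fell, where 19.5% of all tested genes rose and 15.4% fell. Among the 5 were Foxa1 (-0.50 ± 0.16, 0.017), Gfi1 (-0.56 ± 0.18, 0.022) and Xbp1 (-0.43 ± 0.08, 0.00019), whereas Atoh1 stood at 0.30 ± 0.15 (0.13) and Spdef at 0.04 ± 0.17 (0.87). Nle1 loss with Apc intact called 2 of the 12, both lower: Cdx2, an intestinal identity factor (-0.43 ± 0.11, 0.012), and Hes1 (-0.38 ± 0.13, 0.047). Over all tested genes 8.26% were lower and 7.33% higher.

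Of 26 other goblet cell products tested, of 29 listed, 10 fell and 4 rose in ApccKO against Control crypts on day 2, beside the 29.4% lower and 29.2% higher over all tested genes. Bcas1 (log2 -3.47 ± 0.28, adjusted p = 8.5e-09) and Capn9, a calpain protease (-2.49 ± 0.19, 3e-09), had the smallest p. Guca2a, which encodes guanylin (-1.26 ± 0.19, 1.5e-05), Sytl2, of granule docking (-1.14 ± 0.17, 1.4e-05), and Pigr, the receptor that carries antibodies across the epithelium (-2.22 ± 0.22, 1e-07), fell as well. Clca1, a protease of the mucus, was at 24.11, 14.66 and 17.26 CPM in ApccKO and 12.92, 13.95 and 13.39 CPM in Control crypts (0.48 ± 0.24, 0.093). Spink4 (0.36 ± 0.19, 0.11) and Ern2, a stress sensor of mucus-secreting cells (0.18 ± 0.15, 0.31), were not called either. Double knockout against ApccKO crypts called 8 higher and 6 lower, beside 19.5% and 15.4% over all tested genes, with Guca2a (1.05 ± 0.19, 0.00028), Bcas1 (1.13 ± 0.28, 0.0035) and Spink4 (0.54 ± 0.19, 0.03) higher and Clca1 (-0.63 ± 0.24, 0.046) and Pigr (-0.76 ± 0.21, 0.0088) lower. Nle1 loss with Apc intact called 2, both lower, beside 8.26% lower and 7.33% higher over all tested genes. They were Atp2c2, a calcium pump of the Golgi (-0.81 ± 0.14, 0.00078), and Pdia5 (-0.46 ± 0.12, 0.014).

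**Figure D4:**
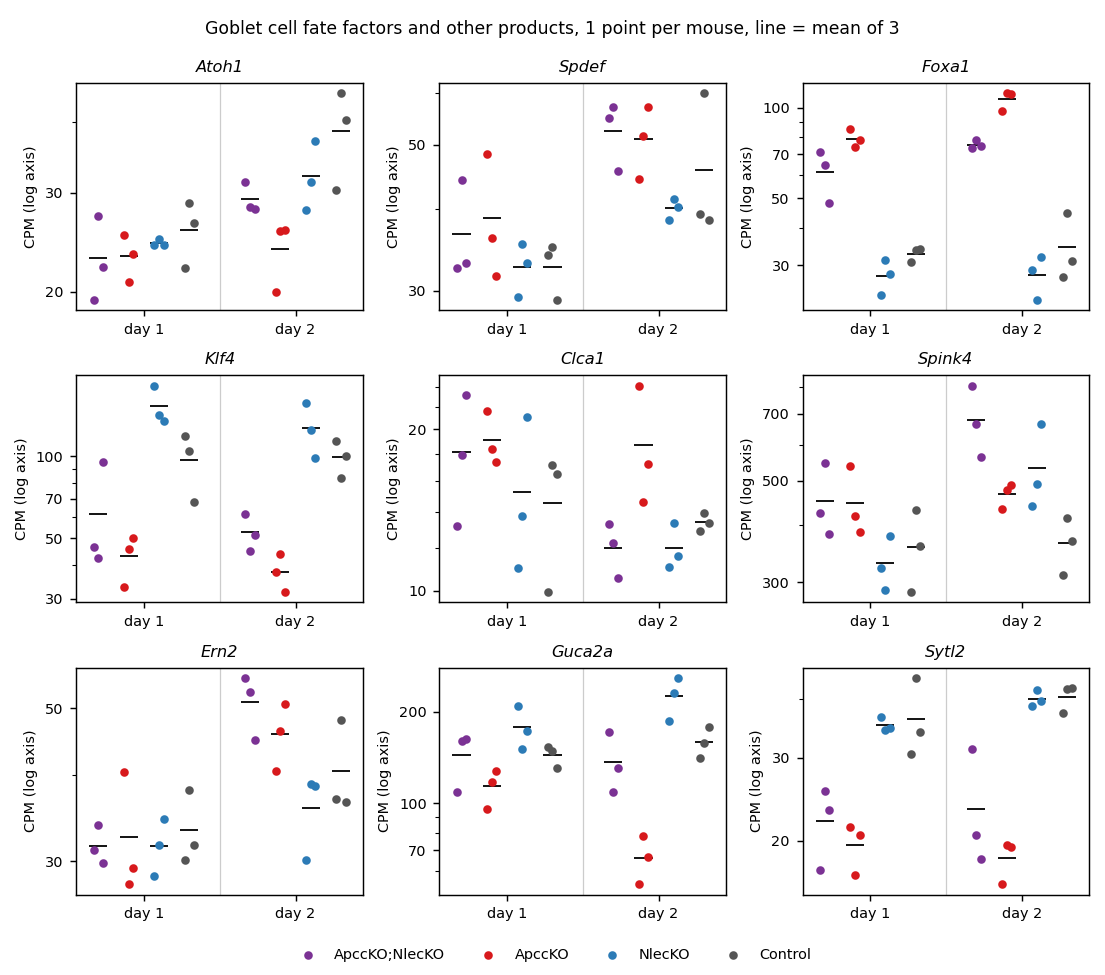
CPM of 4 goblet cell fate factors (Atoh1, Spdef, Foxa1, Klf4) and 5 other products (Clca1, Spink4, Ern2, Guca2a, Sytl2) in each of 24 mice (log axis), with a line at the mean of 3 mice. On day 2 Foxa1 is high and Klf4 and Sytl2 are low in both Apc-lost genotypes, whereas Spdef spans 44.41 to 57.03 CPM in ApccKO and 38.45 to 59.91 CPM in Control crypts.

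Of the other mucins 4 of 12 listed passed the filter. Muc3, a membrane mucin of the brush border, was at 59.59, 37.44 and 36.61 CPM in ApccKO and 449.6, 153.8 and 317.4 CPM in Control crypts on day 2 (log2 -2.78 ± 0.45, adjusted p = 5e-05), and it was higher in double knockout than in ApccKO crypts (1.26 ± 0.43, 0.031). Muc20 (1.41 ± 0.35, 0.0016) and Muc1 (1.81 ± 0.61, 0.015) rose after Apc loss from means under 1 CPM in Control crypts. Of 35 genes of mucin O-glycosylation tested, 17 fell and 7 rose in ApccKO against Control crypts on day 2, where 58.7% of all tested genes were called. C1galt1, which builds the core 1 sugar, rose (0.57 ± 0.15, 0.0025) and its chaperone C1galt1c1 fell (-0.74 ± 0.09, 1.8e-06). Gcnt4 (-3.67 ± 0.27, 4.9e-09), B3gnt7 (-1.59 ± 0.17, 1.6e-07), the sialyltransferase St6galnac1 (-1.46 ± 0.56, 0.033) and the branching enzyme Gcnt3 (-0.54 ± 0.16, 0.0055) fell, and Galnt12 stood at 0.25 ± 0.14 (0.14). Fut1, the neighbouring fucosyltransferase, rose as Fut2 did (1.71 ± 0.41, 0.0014), at 4.66 ± 1.6 CPM in ApccKO and 1.42 ± 0.48 CPM in Control crypts (SD, n = 3 each), and was lower in double knockout than in ApccKO crypts (-1.33 ± 0.40, 0.015). Gcnt3 was also higher after Nle1 loss with Apc intact (0.75 ± 0.16, 0.0028) and with Apc lost (0.64 ± 0.16, 0.0034).

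Of 28 genes of secretory folding and transport 16 fell and 2 rose in ApccKO against Control crypts on day 2, where 29.4% of all tested genes fell and 29.2% rose, with a median log2 change of -0.34. The chaperone Hspa5 (-0.44 ± 0.10, adjusted p = 0.00094), Dnajc3 (-0.81 ± 0.08, 8.4e-08), the disulfide isomerase P4hb (-1.47 ± 0.19, 2.8e-06) and the granule GTPase Rab27a (-0.44 ± 0.14, 0.014) were among them. Of 13 tested genes of the cytokine axis that acts on mucus and Fut2, 6 fell and 4 rose, beside the same 29.4% and 29.2% over all tested genes. The interleukin-13 receptor chain Il13ra1 (-0.75 ± 0.19, 0.0026), the interleukin-22 receptor chain Il22ra1 (-0.55 ± 0.18, 0.016) and Il18 (-3.11 ± 0.37, 1.6e-06) fell, and Il4ra rose (1.48 ± 0.22, 1.7e-05). Reg3b (1.69 ± 0.80, 0.077) and Reg3g (0.75 ± 0.71, 0.38), targets of interleukin-22, were not called.

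Markers of other cells in the crypt preparation moved with the genotypes too. Beside the counts below, 29.4% of all tested genes fell and 29.2% rose in ApccKO against Control crypts on day 2. In double knockout against ApccKO crypts 19.5% were higher and 15.4% lower. Of 18 enterocyte markers 18 fell in ApccKO against Control crypts on day 2, and their sum ranged from 3652 to 6114 CPM in ApccKO and from 11725 to 40116 CPM in Control crypts. It ranged from 6277 to 10773 CPM in double knockout and from 34921 to 46838 CPM in NlecKO crypts. Of 16 immune cell markers 13 fell, with sums of 71.6 to 82.3 CPM in ApccKO and 453.4 to 831.8 CPM in Control crypts, and 8 were higher in double knockout than in ApccKO crypts. Of 19 tested Paneth cell markers 8 rose and 2 fell, with sums of 10826 to 11848 CPM in ApccKO and 7888 to 13974 CPM in Control crypts. Of 12 stem cell markers 11 rose, and 10 of the 12 were lower in double knockout than in ApccKO crypts, with sums of 2547 to 2923 CPM in double knockout and 5378 to 5991 CPM in ApccKO crypts. Of 20 enteroendocrine markers 16 fell and 1 rose in ApccKO against Control crypts, and 13 were higher and 2 lower in double knockout than in ApccKO crypts. Their sum ranged from 1132 to 1328 CPM in double knockout, from 609 to 765 CPM in ApccKO and from 871 to 994 CPM in Control crypts. Of 11 tested tuft cell markers 11 fell in ApccKO against Control crypts and 4 were higher in double knockout than in ApccKO crypts, with sums of 39.2 to 50.7 CPM in double knockout, 25.8 to 33.7 CPM in ApccKO and 136 to 190 CPM in Control crypts. In both lists the double knockout sums lay above the ApccKO sums in all mice, as for Zg16, Tff3, Fcgbp, Muc2 and Agr2. The enterocyte, immune cell (144 to 166 CPM in double knockout) and stromal and endothelial (22.5 to 36.8 CPM) sums did so too. Paneth cell sums overlapped (10008 to 19029 CPM in double knockout), and stem cell sums lay lower in double knockout crypts. In such bulk samples a change in cell number and a change in marker RNA per cell cannot be told apart. The part of these marker shifts in the mucus gene results was not tested. Of 7 tested stromal and endothelial markers, of 12 listed, 2 fell and 1 rose, with sums of 9.07 to 16.2 CPM in ApccKO and 20.8 to 40.3 CPM in Control crypts, and Cdh5, Kdr, Lum and Pdgfra stayed under 0.5 CPM in every library.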

How the data were processed

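Expected counts per gene (deposited by the authors as estimated counts) were made with kallisto 0.43, per the submitters' processing notes, which also name mm9, DESeq2 and DESeq; the annotation release is not given in the sources used here. TPM, also deposited by the authors, served for levels between genes. Tests used rounded counts, R 4.3.3, edgeR 4.0.16 and its dependency limma 3.58.1: a filter with a minimum count of 10, TMM scaling, 8 group means over all 24 libraries, the robust quasi-likelihood test, and Benjamini-Hochberg adjustment over 16552 genes with a threshold of 0.05. The biological coefficient of variation was 17.6%. CPM are TMM-scaled. Values are mean ± SD over 3 mice, fold changes log2 ± SE. DESeq2 1.42.0 was an alternative. For the term for sex, sex was inferred from the counts of Y-linked genes, which gave 9 male and 15 female libraries. Procedures were checked on simulated data. The members and lists were chosen with earlier results of these data known. Named genes were the members, Nle1, Apc, a preset choice from each list and at most 2 more per list with the smallest p in ApccKO and in NlecKO against Control on day 2; Muc17 was not analysed here. Genes most like Muc2 or Fut2 had a mean of at least 5 CPM. Gm8730, Lct and the stromal genes at low level were chosen after their values were seen. Same-numbered mice had a mean correlation of deviations of only 0.06, which cannot exclude a pairing, and replicate numbers were not used as pairs. Gene sequences were matched by symbol to RefSeq (GRCm38.p6), and shared 31-base words were counted on GENCODE transcripts.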

Additional observations from a re-analysis of the deposited data

Results flagged for a closer look

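For 5 of the 9 genes, the effect of one gene loss differed between states of the other gene or between days, by a test of the difference itself with edgeR over all genes. The Nle1 effect on day 2 with Apc lost, minus that with Apc intact, was 1.17 for Muc2, 1.49 for Fcgbp, 1.38 for Zg16, 1.19 for Tff3 and 0.67 for Agr2 on the log2 scale. In that test 5.24% of all tested genes were called, and the Zg16 and Agr2 calls were lost without most single libraries. The Apc effect with Nle1 present, day 2 minus day 1, was -0.80 for Muc2, -1.47 for Fcgbp, -1.31 for Tff3 and -0.86 for Agr2. There 1.13% of all tested genes were called. The Muc2 call was lost without any 1 of the 12 libraries compared, and the Agr2 call without some of them. The Nle1 effect with Apc lost, day 2 minus day 1, was 1.09 for Muc2, 1.21 for Tff3 and 0.94 for Agr2. For it 0.435% of all tested genes were called. Its Agr2 call was lost without most single libraries. Its Muc2 call was lost without double knockout replicate 3 or ApccKO replicate 3 of day 2. Both differences between days use day 1 ApccKO, which is 1 mouse without the 3 libraries that stood apart. In that fit the difference of the Apc effect was -1.15 for Fcgbp.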

How the results depend on the processing

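Counts of the 9 genes called moved under some settings. NlecKO against Control on day 1 called 1 with DESeq2, with a filter of 2 CPM in 3 libraries and with a term for sex, against 0. The day 2 interaction called 3, against 5, with no filter and with only the libraries compared. Without the 3 day 1 libraries that stood apart, which leaves 1 day 1 ApccKO mouse and 2 day 1 double knockout mice, day 2 against day 1 in ApccKO called 2 against 5, the difference of the Apc effect between days called 1 against 4, and that of the Nle1 effect with Apc lost called 1 against 3; DESeq2 called 5 in that last test. With only the libraries compared, day 2 against day 1 in double knockout called 1 against 2, and the difference of the Apc effect between days called 2 against 4.

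Leaving out each library in turn gave 5 to 6 (day 1) and 8 to 9 (day 2) called genes for ApccKO against Control, 0 to 1 and 6 to 6 for double knockout against ApccKO, 5 to 7 and 7 to 8 for double knockout against NlecKO, and 0 to 1 and 1 to 1 for NlecKO against Control. The interaction gave 0 to 0 and 3 to 5. Over all genes the same fits had 6645 to 8022 (day 1) and 8564 to 9679 (day 2) calls for ApccKO against Control. Double knockout had 600 to 2147 and 4277 to 5040 against ApccKO, and 7061 to 8720 and 6590 to 7839 against NlecKO. NlecKO against Control had 29 to 1159 and 1206 to 2818, and the interaction 0 to 7 and 374 to 1222. Of the 9 genes, day 2 against day 1 called 0 to 0 in Control, 0 to 1 in NlecKO, 4 to 6 in ApccKO and 1 to 3 in double knockout. Over all genes it called 0 to 82, 0 to 194, 861 to 1874 and 254 to 1183 in that order. The difference between days called 2 to 4 of the 9 for the Apc effect. For the Nle1 effect it called 1 to 5 with Apc lost and 0 to 0 with Apc intact. Over all genes these ranges were 66 to 403, 8 to 134 and 0 to 190 in that order.

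Over all genes, NlecKO against Control on day 1 had 411 calls, 800 with DESeq2 and 6 with only the libraries compared, and on day 2 it had 2581 and 279 in that setting. Double knockout against ApccKO on day 1 had 1762 and 535, and day 2 against day 1 in double knockout 1075 and 454. Day 2 against day 1 had 27 calls in Control (142 with DESeq2, 5 with only the libraries compared) and 6 in NlecKO (73 and 1). The difference between days had 187 for the Apc effect (497 and 108), and for the Nle1 effect 72 with Apc lost (302 with DESeq2) and 1 with Apc intact (216), and the day 1 interaction 2 (44). Without the 3 libraries that stood apart, double knockout against ApccKO on day 1 had 33, day 2 against day 1 in ApccKO 34 in place of 1875, and the difference between days 3 for the Apc effect and 5 for the Nle1 effect with Apc lost. With no filter NlecKO against Control on day 1 had 266 and the difference between days of the Apc effect 118; with a term for sex, day 2 against day 1 had 50 in Control and 35 in NlecKO, and the difference between days of the Nle1 effect 113 with Apc lost and 211 with Apc intact. Counts under 30 moved by over 1.5 times in other settings too. The cause was not tested.

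With the replicate number as a block, the day 2 interaction called 4 against 5 and the difference of the Apc effect between days called 3 against 4; no other member count changed. Same-numbered mice had a mean correlation of deviations of 0.06 (84 pairs, -0.57 to 0.70) and differently numbered mice -0.03 (168 pairs). Deviations were taken from group means of 3 mice, so these 2 means depend on each other. They show no clear pairing by number and cannot exclude one.

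Of 2329 member tests under another setting, 2114 kept direction and side of the threshold, 97 lost a call, 30 gained one, 0 changed sign with a call and 88 differed in sign with no call in either. Retnlb, the least counted of the 9, and Fut2 had the largest errors.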
